A study of Xenopus laevis with 18 samples.

Results

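A set of 86 gene models, out of 31357 in the table, was nearly absent from cleavage embryos, abundant in tailbud embryos and already well above 0 in the neurula of the African clawed frog, Xenopus laevis (J strain). They were chosen on 3 values from the deposited TPM, a unit that gives each model's transcripts relative to all transcripts of its library: a mean of at least 100 TPM over the 4 tailbud libraries, a mean under 0.1 TPM over stages 2, 6, 6.5 and 7, and a mean over stages 14, 16 and 18 of at least 10% of the tailbud mean. These values are a description of the set and support nothing further. Poly(A)+ RNA of whole embryos was sequenced in 18 libraries, 1 for each of 18 Nieuwkoop-Faber stages, with no treatment and no replicated stage. The libraries fell into tailbud (stages 23, 26, 30 and 33), neurula (14, 16, 18 and 20), gastrula (10 and 12), blastula (8, 8.5 and 9) and early (0, 2, 6, 6.5 and 7) periods, all of the same strain and raised alike in MMR saline with gentamycin, then snap frozen. Nothing in the labels says how many embryos or clutches stand behind a library, so p-values measure differences against the spread between stages. In whole embryos, more cells of a type and more RNA per cell cannot be told apart, and in poly(A)-selected RNA a longer tail and more RNA cannot be told apart either.

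Genes that turn on after the early cleavages make up the zygotic program. The frog egg is stocked with maternal mRNA, transcription from the zygotic genome starts in earnest at the mid-blastula transition, gastrulation lays down the germ layers, and the neural plate, notochord and somites take shape in the neurula. Organs and tissues such as muscle, epidermis and nervous system then mature in the tailbud. Which of these tissues the 86 models belong to is not given: the table names models by identifier only, 0 identifiers matched the reference table of gene names, and no sequence or gene role is given here for that reason.

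The selection left out 7 libraries, those of stages 0, 8, 8.5, 9, 10, 12 and 20, which show the set on stages that did not choose it. Of 1375 models with a tailbud mean of 100 TPM or more, 142 were under 0.1 TPM on average at stages 2 to 7, and these divide into the 86 described here and 56 whose neurula mean was under 10% of the tailbud mean. The 56 are called models rising after the neurula below. That name stands for the low neurula share only, since 55 of the 56 also had a slope above 0 within the neurula. The nearest models on either side of the 3 limits stood at 100.2 TPM inside and 99.9 TPM outside for the tailbud mean, at 10.4% inside and 9.97% outside for the neurula share, and at 0.0825 TPM inside and 0.1025 TPM outside for the early mean.

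Within the set the tailbud mean ran from 100.2 to 6144 TPM, with a median of 241.6 TPM, so a few models carried much of the RNA. 12 models stood at 1000 TPM or more, 37 stood under 200 TPM, and the 5 most abundant held 38.6% of the summed tailbud means. As a share of the gene-model TPM, the set as a whole held 0.0164% in the stage 9 library, 0.0684% and 1.12% in the gastrula (stages 10 and 12), 2.81%, 3.06%, 3.37% and 4.01% in the neurula (stages 14 to 20) and 5.49%, 5.92%, 5.22% and 5.06% in the tailbud (stages 23 to 33). The share was highest at stage 26. The 56 models rising after the neurula held 4.3% in the last library and 0.697% in the stage 20 library.

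**Figure D1:**
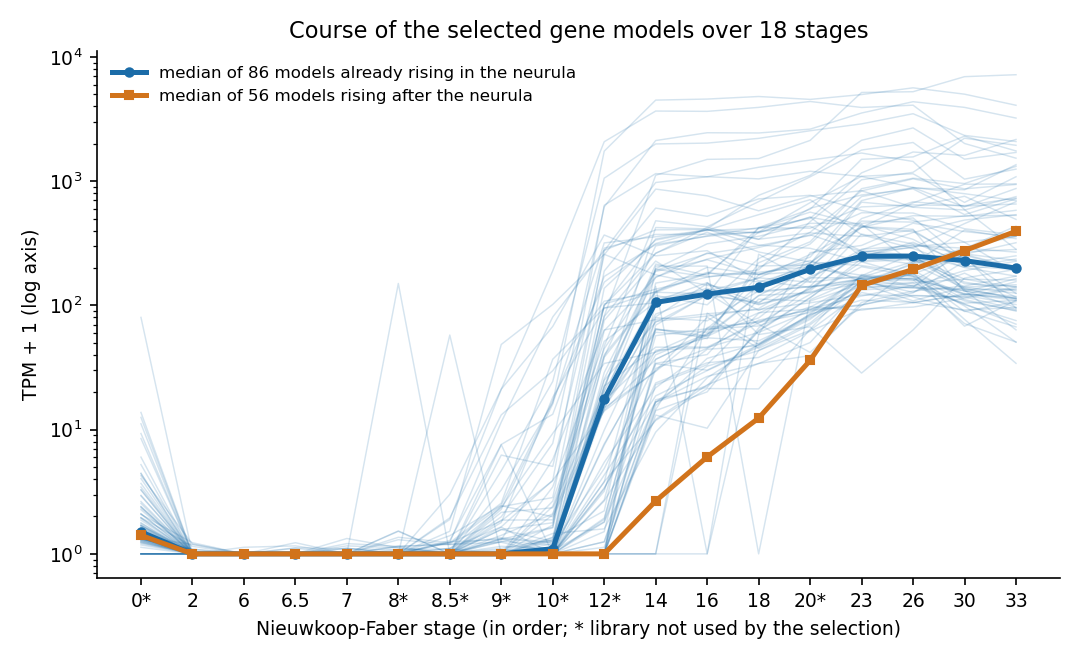
TPM + 1 on a log axis for each of the 86 models (thin lines) over the 18 stages in order, with their median and the median of the 56 models rising after the neurula; an asterisk marks the 7 libraries the selection did not use. The median of the 86 models was 0.1 TPM at stage 10, 16.6 TPM at stage 12 and 194 TPM at stage 20.

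The most abundant model, XeXenL6RMv10030903m, reached its highest level at the last stage. The stage 0 library held 12.8 TPM of it, the 6 libraries of stages 2 to 8.5 list it at 0, and those of stages 9, 10 and 12 held 0.87, 0.88 and 81.1 TPM. The neurula libraries (stages 14, 16, 18 and 20) held 1116, 1498, 1520 and 2128.5 TPM, and the tailbud libraries (stages 23, 26, 30 and 33) 5181, 5252, 6942 and 7200 TPM. Its tailbud mean was thus 6144 ± 1076 TPM (SD over stages, n = 4), beside a neurula mean of 1566 ± 419 TPM (SD over stages, n = 4).

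XeXenL6RMv10040844m, the next in abundance, was near its plateau from stage 14 on. The stage 0 library held 11.6 TPM, the 6 libraries of stages 2 to 8.5 list it at 0, and the next 3, of stages 9, 10 and 12, held 2.27, 15.4 and 1745 TPM. The neurula libraries held 4496, 4585, 4807 and 4556 TPM, and the tailbud libraries 4982, 5645, 5020 and 4086 TPM. The 2 most abundant models therefore differed in shape: at stage 12 the first was at 1.32% of its tailbud mean and the second at 35.4%.

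A pair of other models followed the median course of the set most closely over the 7 libraries the selection did not use (Pearson's r on log2(TPM + 1) of 0.998 or more, a description over 7 libraries that share their depth and scaling with the median). XeXenL6RMv10004111m had 0.64 TPM in the stage 0 library, 0.15 TPM or less in those of stages 2 to 10, 24.7 TPM in that of stage 12, then 168, 235, 292 and 370 TPM over the neurula and 270, 290, 455 and 683 TPM over the tailbud. XeXenL6RMv10025938m had 0.95 TPM in the stage 0 library, was listed at 0 in those of stages 2 to 10, and had 17.0 TPM in that of stage 12, then 190, 260, 302 and 364 TPM over the neurula and 556, 553, 413 and 369 TPM over the tailbud. Both stood higher at each neurula stage than at the one before, and they then parted: the highest tailbud library was stage 33 for the one and stage 23 for the other.

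Stage 12, late in gastrulation, was the most frequent stage of first sustained signal. Onset was taken, from the blastula on, as the earliest library with 1 TPM or more whose next library also had 1 TPM or more. It was stage 8.5 for 1 model, stage 9 for 14, stage 10 for 10, stage 12 for 40, stage 14 for 17, stage 16 for 2 and stage 18 for 2. The stage numbers are unevenly spaced, with no library between stages 10 and 12, so these counts are not rates. For the 56 models rising after the neurula, onset by stage 12 was found in 7 (1 at stage 9 and 6 at stage 12), and at stage 14 in 26. The neurula share that divides the sets bears on onset too, so these counts are not compared.

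By the definition of onset, the models with an onset at stage 9 or 10 stood at 1 TPM or more at stage 10. Of the 86 models, 12 stood at 10 TPM or more in that library, and both models given here were among the 12. XeXenL6RMv10013540m, the single model with an onset at stage 8.5 and chosen after its values were seen, had 2.02, 20.2, 66.8 and 368 TPM in the libraries of stages 8.5, 9, 10 and 12, and 162, 157, 259 and 229 TPM over the tailbud. Its highest library was stage 12, which held for 1 other model. That other model, XeXenL6RMv10027462m, also chosen after its values were seen, had 47.5, 100.9 and 257 TPM in the libraries of stages 9, 10 and 12.

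Most models of the set were higher in the gastrula (stages 10 and 12) than in the blastula (stages 8, 8.5 and 9). Neither period had been used to choose the set, but the selection fixed its levels on both sides of them. It held the set near 0 before the blastula and well above 0 in the neurula, so a rise in between was built in. The counts below therefore describe when the set rose, and their direction beside that of all models is no independent finding. Of the 86 models, 51 passed as higher in the gastrula and 0 as lower (limma on log2(TPM + 1), adjusted p under 0.05 over all 23880 models tested), which is 59.3% of the set. Over all models tested, 5.46% passed as higher and 33.6% as lower. At an unadjusted p under 0.05, 54 of the 86 were higher and 0 lower. The median difference was 2.18 on the log2 scale in the set and -0.66 over all models tested. Of the 56 models rising after the neurula, 0 passed in either direction and 0 had an unadjusted p under 0.05, with a median of 0. These 56 were divided off by a low neurula share, which bears on stage 12 as well, so the sets are not compared. The background depended on the scaling, with 3421 models higher and 2498 lower after median-of-ratios scaling, against 1305 higher and 8027 lower as deposited; in the set 47 passed as higher and 0 as lower under that scaling. A pair of models outside the set was on in 5 libraries and listed at 0 in others, and 1 of the pair stood at 362793 TPM at stage 10; with TPM rescaled without that pair and the spike-ins, 49 of the 86 passed as higher and 0 as lower.

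**Figure D2:**
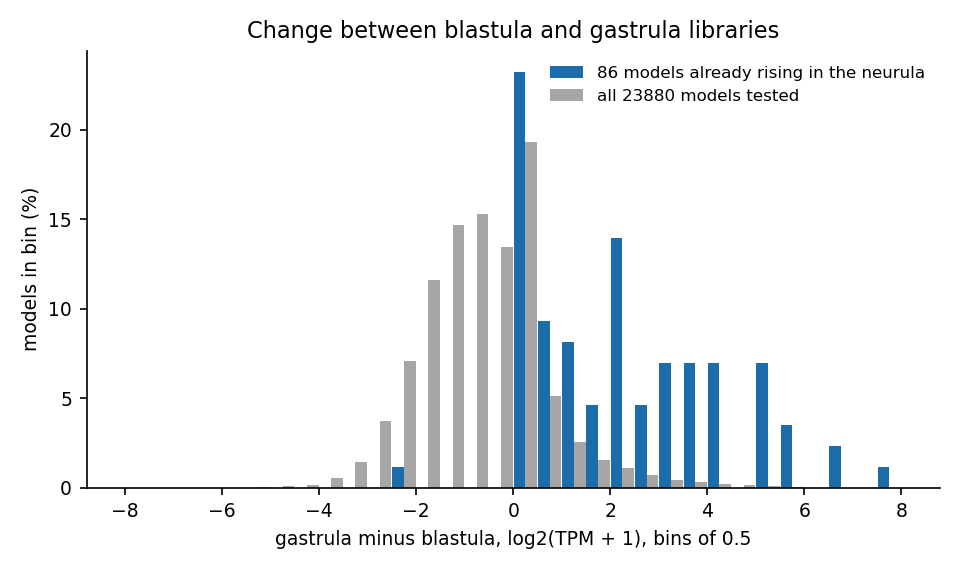
Percent of models in bins of the gastrula minus blastula difference on the log2(TPM + 1) scale, for the 86 models and for all 23880 models tested. The median was 2.18 in the set and -0.66 over all models, and 1 of the 86 models lay below 0.

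The 2 largest called rises at gastrulation belonged to XeXenL6RMv10040861m and XeXenL6RMv10040844m, and their order depended on the processing. For XeXenL6RMv10040861m the gastrula libraries (stages 10 and 12) held 189 and 2078 TPM, and the blastula libraries (stages 8, 8.5 and 9) held 0, 0.89 and 20.1 TPM. On the log2 scale its level was higher by 7.52 ± 1.11 (SE; limma adjusted p = 8.93e-05, and 7.36e-06 to 0.0547 over 16 alternatives), and both gastrula libraries lay above each blastula library. XeXenL6RMv10040844m, described above, followed with 6.83 ± 1.24 (limma adjusted p = 0.000423), and its periods did not overlap either. Over 16 alternatives its limma adjusted p ran to 0.0973. Its difference was 3.47 without stage 12 and 10.20 without stage 10, fits that each leave a single gastrula library. It was the larger of the pair without stage 10 (10.20, beside 9.25 for XeXenL6RMv10040861m), with a pseudocount of 0.1 (9.16 beside 8.96) and when the 5 libraries holding the on/off pair were dropped (9.92 beside 8.82). Over the neurula XeXenL6RMv10040861m had 3670, 3649, 3929 and 4384 TPM, and over the tailbud 3922, 4092, 2011 and 1532 TPM, so that its lowest library from stage 14 on was the last.

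The gastrula rise rested mainly on stage 12. Without that library 16 of the 86 models passed as higher, all of them among the 51, and the median difference was 0.05. Without stage 10, 63 passed as higher. Either of these fits leaves a single gastrula library, so its calls rest on the spread within the other periods. In a fit of the 5 blastula and gastrula libraries alone 6 passed, 5 of them among the 51. In the fit of all 18 libraries the spread also takes in the 5 early libraries, 4 of which (stages 2 to 7) the selection held near 0 for these models.

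Single stages are compared without a test, and the selection constrained the direction up to the neurula here too. At stage 12, 64 of 86 models were more than 2-fold above stage 10 on the TPM + 1 scale and 0 were more than 2-fold below, beside 17.8% and 14.1% of all models tested. The median step was 2.95 on the log2 scale. On TPM rescaled without the pair that took much of stage 10, 63 of the 86 were more than 2-fold above and 0 below. Beside these stood 11.6% and 28.2% of all models on the same rescaled TPM, and the median step in the set was 2.65. At stage 14, 67 were more than 2-fold above stage 12 and 0 below, beside 9.85% and 7.63% of all models; stage 14 is among the libraries that chose the set, so nothing is read from that count. At stage 20, which did not choose the set, 7 models (8.14%) were more than 2-fold above stage 18 and 0 below, beside 7.17% and 1.52% of all models, a share near that of the table as a whole. The stage 20 column carries a suffix, rr, which the stage 18 column lacks and the labels do not explain. Its part in this step was not tested.

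Within the neurula most slopes were positive. The selection used 3 of the 4 neurula libraries, so these slopes describe the set and nothing is read from their calls. The slope over stages 14, 16, 18 and 20 was above 0 in 78 of 86 models (90.7%), beside 69.5% of all models tested, with a median of 0.37 on the log2 scale per stage step in the set and 0.10 over all models tested. 15 of the 86 (17.4%) passed as rising and 0 as falling (limma adjusted p under 0.05), with 29 rising and 0 falling at an unadjusted p under 0.05. Over all models tested 4.34% passed as rising and 0.147% as falling. Of the 56 models divided off by their neurula share, 55 (98.2%) had a slope above 0 and 39 (69.6%) passed as rising. Slopes above 0 within the neurula were thus found in both sets. The share that divides the sets rests on stages 14, 16 and 18 too, so their counts are not compared. With spike-in scaling the median slope was 0.75 in the set and 0.39 over all models, and 33 of the 86 passed as rising.

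The steepest called neurula slopes belonged to models listed at 0 when the period began. XeXenL6RMv10037918m was listed at 0 in the 12 libraries of stages 0 to 16 and had 57.3 and 66.3 TPM in those of stages 18 and 20, a slope of 2.41 ± 0.32 (SE). XeXenL6RMv10024106m was listed at 0 up to stage 14 and stood at 152, 57.3 and 265 TPM at stages 16, 18 and 20, a slope of 2.28 ± 0.44 (SE). Both slopes start from 0, so their size depends on the pseudocount. In the same order they were 3.73 and 3.27 with a pseudocount of 0.1, and 1.51 and 1.59 with a pseudocount of 5. Single libraries carried much of this second slope, which was 0.40 without stage 14 and 2.93 without stage 20. The count of rising models in the set was 7 without stage 14 and 4 without stage 20, the last with 1 falling. Over all models tested, rising were 562 without stage 14 and 220 without stage 20, beside 1037 with all libraries. Among the neurula columns only that of stage 20 carries the suffix rr, and its part in these slopes was not tested.

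Across the tailbud the slopes of the set had both signs, in shares near those of the whole table. The mean of the 4 tailbud libraries chose the set, so the slopes over them are given as a description. The slope over stages 23, 26, 30 and 33 was below 0 in 52 of 86 models (60.5%) and above 0 in 34. Below 0 were 59.2% of all models tested and 54.5% of the 1375 models with a tailbud mean of 100 TPM or more. The median slope of the set was -0.08 on the log2 scale per stage step, beside -0.05 over all models tested. 0 models of the set passed as rising and 0 as falling (limma; the smallest adjusted p was 0.117), with 3 rising and 6 falling at an unadjusted p under 0.05. Over all models tested 4.4% passed as rising and 1.13% as falling. The spread in this fit also takes in the step between stages 10 and 12, which was large in the set. The sign of the median turned on the scaling: it was 0.27 with spike-in scaling, where the median over all models was 0.25, and 0.00046 with median-of-ratios scaling, where it was 0.007 over all models.

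**Figure D3:**
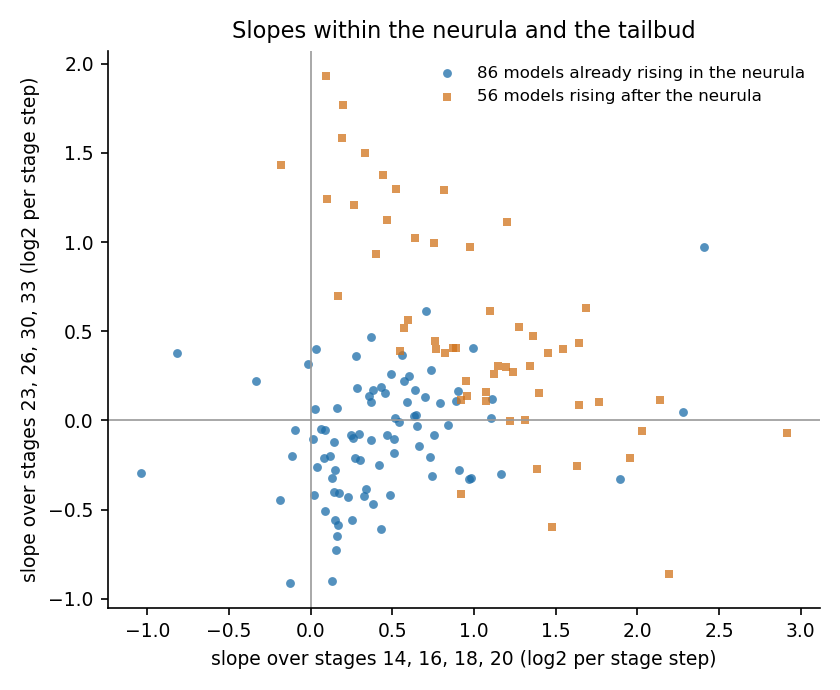
Slope over the 4 tailbud stages against slope over the 4 neurula stages, in log2(TPM + 1) per stage step, 1 point per model. The 86 models had a median tailbud slope of -0.08 and a median neurula slope of 0.37, the 56 models rising after the neurula 0.40 and 1.02.

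Between the ends of the tailbud most models moved by less than 2-fold on TPM as deposited. The counts of this paragraph were not repeated under other scalings. The median tailbud slope of the set was -0.08 as deposited and 0.27 with spike-in scaling, so these counts may depend on the scaling. The level at stage 33 was more than 2-fold below that at stage 23 in 17 models, more than 2-fold above it in 6 and within 2-fold in 63, as a range from 0.159-fold to 7.05-fold with a median of 0.846-fold. Those counts are 19.8% and 6.98% of the set, beside 12.9% and 14.6% of all models tested and 6.33% and 8.22% of the 1375 models with a tailbud mean of 100 TPM or more. Of the 56 models rising after the neurula, 3 stood more than 2-fold below and 33 more than 2-fold above, a set divided off by its neurula share. The level was lower after every tailbud step in 22 models (25.6%, beside 14.5% of all models tested) and higher after every step in 12 (14%, beside 9.96%).

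The lowest and the highest tailbud slope, chosen after their values were seen, belonged to XeXenL6RMv10012069m and XeXenL6RMv10037918m. XeXenL6RMv10012069m stood at 99.2 TPM at stage 12, at 262, 388, 268 and 223 TPM in the neurula and at 208, 182, 76.2 and 33.2 TPM in the tailbud (slope -0.91 ± 0.48 (SE), limma adjusted p = 0.522). XeXenL6RMv10037918m stood at 27.6, 62.5, 165 and 194 TPM in the tailbud (slope 0.97 ± 0.32, limma adjusted p = 0.117). The levels of the first were lower after each tailbud step and those of the second higher, and neither slope passed the test.

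On TPM as deposited, the highest library of a model lay before stage 23 in 19 of the 86 models. It lay at stage 23 or 26 in 38 and at stage 30 or 33 in 29. Of the 56 models rising after the neurula, 0 had their highest library before stage 23, 12 at stage 23 or 26 and 44 at stage 30 or 33. The split by neurula share that separates these sets bears on where a model can be highest, so this difference was not tested.

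The tailbud courses are set out here by onset, as a description with no test. Of the 25 with an onset by stage 10, 21 had a tailbud slope below 0 and 10 stood more than 2-fold lower at stage 33 than at stage 23. Of the 40 with an onset at stage 12, 20 had a slope below 0 and 7 stood more than 2-fold lower. Of the 21 with an onset from stage 14 on, 11 had a slope below 0 and 0 stood more than 2-fold lower. The median stage 33 level was 0.64-fold that of stage 23 in the first group, 1.01-fold in the second and 0.956-fold in the third. The ranges of the 3 groups overlapped widely. Over all models tested, 59.2% had a tailbud slope below 0 and 12.9% stood more than 2-fold lower at stage 33 than at stage 23. The counts by onset are on TPM as deposited and were not repeated under other scalings, on which the sign of the median tailbud slope depended.

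**Figure D4:**
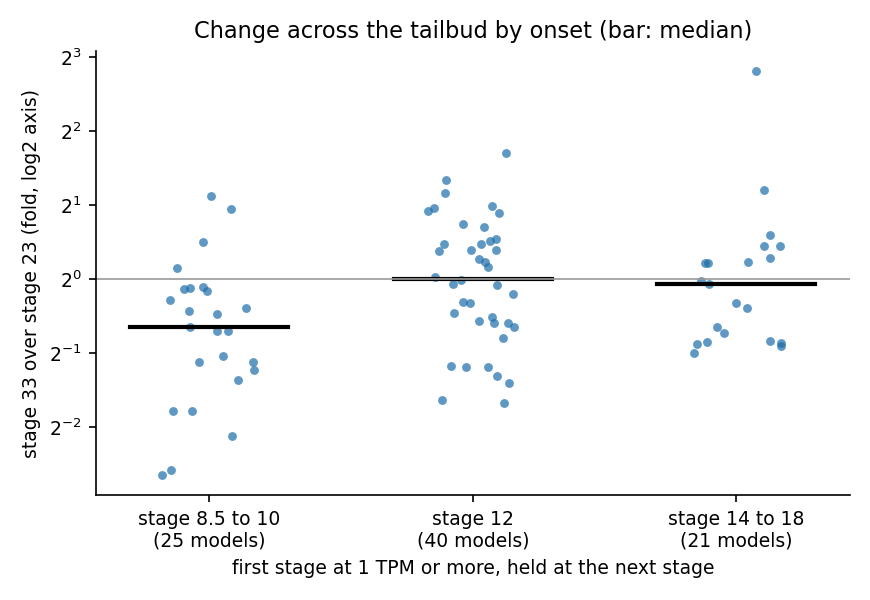
Stage 33 level over stage 23 level (log2 axis) for each of the 86 models, grouped by the stage of onset; bars are medians. The medians were 0.64-fold for onset at stages 8.5 to 10 (25 models), 1.01-fold for stage 12 (40) and 0.956-fold for stages 14 to 18 (21).

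At stage 0, the start of development, most of these models were listed above 0, while nearly all were at 0 in the next 4 libraries. 75 of 86 were above 0 at stage 0, against 7, 1, 4 and 6 at stages 2, 6, 6.5 and 7, where the selection held them low. The median was 0.505 TPM at stage 0, and 27 models stood at 1 TPM or more. For 68 of the 86 models the stage 0 value lay between 0.1% and 0.5% of the tailbud mean, with a median of 0.234% and quartiles of 0.155% and 0.302%; 3 models were above 0.5%, at 22.4% for the highest and 0.553% for the next.

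The stage 0 values followed the later levels across models. Spearman's rho across the 86 models between stage 0 and another library, a description over models that share those libraries, was 0.04 with stage 2, 0.26 and 0.40 with the gastrula libraries (stages 10 and 12), 0.58, 0.44, 0.72 and 0.72 with the neurula libraries (stages 14, 16, 18 and 20) and 0.79, 0.75, 0.65 and 0.62 with the tailbud libraries (stages 23, 26, 30 and 33). The selection held stage 2 near 0, with 7 of the 86 models above 0 there, so nothing is read from its rho. Among the 86 the highest value was that with stage 23, and stages 18 and 20 gave higher values than stages 30 and 33. Across the 56 models rising after the neurula, the highest was 0.65, with stage 26. In those 56, stages 18 and 20 gave 0.56 and 0.50, beside 0.62 and 0.52 for stages 30 and 33. Among the 56 models rising after the neurula 45 were above 0 at stage 0, with a median of 0.15% of the tailbud mean. Among models low at stages 2 to 7 with less tailbud RNA, 52.6% of 941 with a tailbud mean of 10 to 100 TPM and 19% of 3162 with 1 to 10 TPM were above 0 at stage 0. The columns of stages 0, 20, 23, 26, 30 and 33 share a suffix, rr, whose meaning is not in the labels. All other columns, those of stages 14, 16 and 18 among them, lack it. The part of the suffix in the stage 0 values was not tested.

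**Figure D5:**
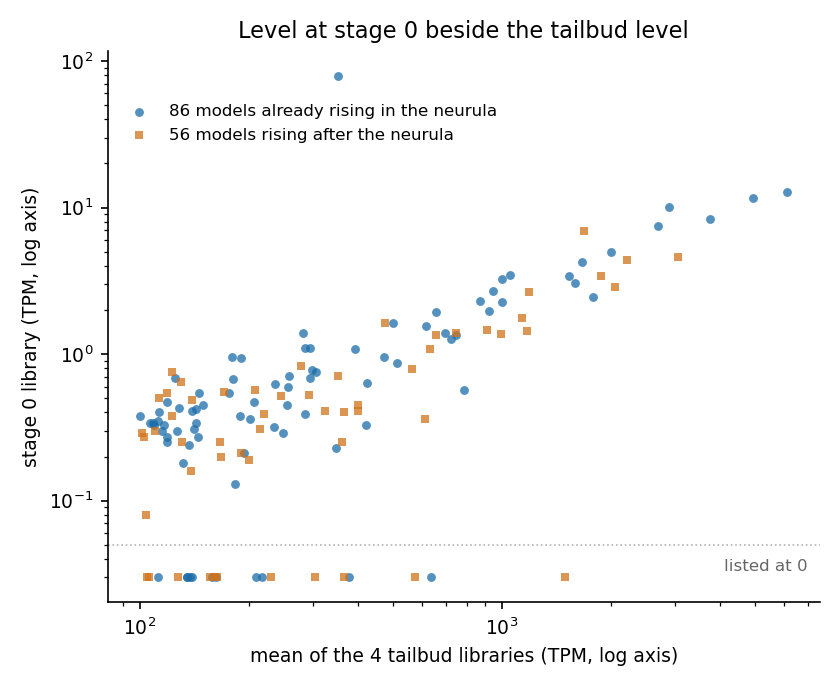
Stage 0 level against the mean of the 4 tailbud libraries, both in TPM on log axes, for the 86 models and the 56 models rising after the neurula; points under the dotted line were listed at 0. Apart from 1 model at 79.1 TPM, the 86 models stood at 12.8 TPM or less at stage 0, with a median of 0.234% of their tailbud mean.

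In 3 of the 86 models, chosen after their values were seen, the signal went on and off between neighbouring libraries, being listed at 0 after a library of at least 10 TPM from stage 2 on. XeXenL6RMv10000645m had 79.1, 149, 141 and 258 TPM in the libraries of stages 0, 8, 14 and 18, and the other libraries before stage 20 list it at 0. XeXenL6RMv10032456m had 56.8, 0, 0 and 74.7 TPM in the libraries of stages 8.5, 9, 10 and 12. XeXenL6RMv10026063m had 206, 206, 0 and 110 TPM over the 4 neurula libraries. In each of the 3, every tailbud library was well above 0, at 88.3 TPM or more. TPM keeps no sequencing depth, and an exact 0 can be a failed estimate, so these models are given as listed; the first of them is the model with the highest stage 0 share and the single one lower in the gastrula than in the blastula (difference -2.41 ± 2.15 (SE), limma adjusted p = 0.413).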

How the data were processed

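The authors deposited 1 table of TPM for 31357 gene models and 88 ERCC spike-in entries in 18 libraries; column sums ran from 999999.7 to 1010293.9. Per the submitters' processing notes, CASAVA 1.8.2, Trimmomatic, Bowtie and RSEM were used; the sources used here give no roles, no other versions and no genome build. Columns were matched to libraries by the stage in the title. The number of reads is unknown, so no counting interval or floor is given. The members, the periods and the tests were chosen with earlier results of these data known.

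Differences in log2(TPM + 1) were tested in R 4.3.3 by limma 3.58.1, with its trend option and Benjamini-Hochberg adjustment at 0.05, two-sided. Tests covered the 23880 models that reached 1 TPM in 2 or more libraries (among them all 86 members, which the tailbud limit ensures); spike-ins were left out. The gastrula contrast used period means over all 18 libraries (13 residual degrees of freedom), the slopes a fit with added slopes in neurula and tailbud (11). Stages of a period are time points, not replicates, and the spread holds developmental change. Changes on this scale understate those of low models. Alternatives were other pseudocounts, filters and scalings, no trend, fewer libraries and each library left out. Spike-in scaling divided by the shortfall of the summed gene-model TPM from the nominal TPM total, not by the spike-in entries themselves. Where a column sum exceeded that total, the shortfall is smaller than the sum of the spike-in entries. For each test, at most 2 called rises and 2 called falls were named, with the 2 most abundant and the 2 most typical members; other named models were chosen after their values were seen.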

Additional observations from a re-analysis of the deposited data

Results flagged for a closer look

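Among the 7 models named by rule, 21 groups of 4 or 5 libraries (early, neurula and tailbud) were examined for a value far from the others, and 5 had one, in each case stage 0 among the early libraries. The values at stage 0 were 10.2 TPM for XeXenL6RMv10040861m, 11.6 TPM for XeXenL6RMv10040844m, 12.8 TPM for XeXenL6RMv10030903m, 0.64 TPM for XeXenL6RMv10004111m and 0.95 TPM for XeXenL6RMv10025938m. All 5 models were listed at 0 in the other 4 early libraries, which the selection held near 0. Any stage 0 value above 0 stands out beside them, so no chance rate applies to these groups. The selection did not use stage 0, and its part in these values was not tested.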

How the results depend on the processing

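Of the counts given, most stayed within 1.5 times under each alternative; the exceptions follow. For the gastrula against the blastula, 51 models passed as higher, 6 in a fit of those 5 libraries alone and 16 to 63 with each of them left out; 0 passed as lower throughout. For the neurula slope, 15 passed as rising, 3 with a pseudocount of 0.1, 28 with a pseudocount of 5, 33 with spike-in scaling, 0 in a fit of the neurula libraries alone and 4 to 14 with each neurula library left out. As falling, 0 passed, with 1 without the 5 libraries in which an on/off pair of abundant models was on (an alternative added after the data were seen) and 0 to 1 with each neurula library left out. For the tailbud slope, 0 rising and 0 falling passed; rising were 3 and falling 2 with a pseudocount of 5, rising 1 with median-of-ratios scaling, rising 5 with spike-in scaling, and 1 each without those 5 libraries. The median tailbud slope was -0.08 as deposited, 0.00046 with median-of-ratios and 0.27 with spike-in scaling. At stage 20, 7 models were past 2-fold above stage 18, and 4 after median-of-ratios scaling. With a tailbud limit of 50 TPM the set held 164 models and with 200 TPM 49; with the rule applied after median-of-ratios scaling it held 109, among them all 86.

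Over all models, the rising and falling neurula slopes were 1037 and 35 as deposited, 465 and 166 with quantile normalization; the tailbud slopes were 1051 and 270, 1077 and 485 with quantile normalization, and 3446 and 145 with spike-in scaling. The 4 models named by their called differences or slopes kept their direction under every alternative run. The 2 named for the gastrula each lost their call in a fit of those periods alone (limma adjusted p = 0.0547 and 0.0973). The 2 named for the neurula slope likewise lost theirs in a fit of the neurula libraries alone. XeXenL6RMv10024106m, 1 of these 2, lost its call in 4 of 16 alternatives. No paired analysis was possible because each stage is 1 library and the labels give no replicate numbers. The cause of these changes was not tested. Without known depth, low values cannot be given a counting error.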

Other observations

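Some members carry neighbouring identifier numbers. The table lists 109 models at the number just before or after that of a member, counted once for each such member, and 8 of these (7.34%) were members themselves, beside 0.274% of all models. They form 4 pairs of consecutive numbers among 7 members. Over the 7 libraries the selection did not use, Pearson's r on log2(TPM + 1) within these pairs was 0.965 for XeXenL6RMv10024106m with XeXenL6RMv10024107m and at least 0.996 in the other 3, against a median of 0.907 over all pairs of members; these are descriptions over libraries that all pairs share. Among those 7 libraries XeXenL6RMv10024106m was above 0 at stage 20 only, so its value of 0.965 rests on that library. At stages 14 and 16 it stood at 0 and 152 TPM, beside 63.7 and 53.0 TPM for XeXenL6RMv10024107m. The sources used here do not say what the order of the numbers stands for, and the table cannot separate reads that near-identical copies share.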
